A study of Danio rerio with 6 samples.

Results

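The myosin chaperones unc45b and Hsp90 were followed in zebrafish trunk and tail muscle on Affymetrix arrays of the zebrafish genome, on which short oligonucleotides report 1 biotin-labelled sample per array. All probe sets were taken whose single gene symbol in the platform annotation is unc45b or begins with hsp90aa, hsp90ab or smyd1. This gave 4 of the 8793 named genes, with 6 of the 15617 probe sets in the table: 1 for unc45b, 1 for hsp90aa1.1, 2 for hsp90aa1.2 and 2 for hsp90ab1, and 0 for the smyd1 genes, which are therefore not analysed here. The tested larvae were runzel (ruz) mutants, a line whose phenotype the series title ascribes to a titin mutation, and they were set against wildtype siblings, with 3 arrays in each group. Both groups were sampled at 3 to 3.5 days after fertilization, when the phenotype first becomes visible. Head, heart and gut had been dissected away, and each array carries RNA of pooled muscle. The series text pairs mutants with siblings of the same clutch over 3 clutches. The sources used here do not say whether the siblings include carriers of the mutation.

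Myosin heavy chain does not fold on its own: its motor domain is a client of a dedicated chaperone team. Unc45b is the muscle form of the UCS-domain chaperones, which hold the myosin head directly and, through a tetratricopeptide domain, bind the C-terminal end of Hsp90. In zebrafish, hsp90aa1.1 encodes the cytosolic Hsp90 that developing muscle fibres use for thick filament assembly, and loss of either unc45b or hsp90aa1.1 leaves muscle without organised myosin filaments. The other cytosolic Hsp90 genes serve as the general forms: hsp90ab1 is the constitutive beta form that most cells contain, and hsp90aa1.2 is the second alpha gene, an immediate neighbour of hsp90aa1.1 with 0 annotated genes between them in the GRCz12tu assembly. Smyd1b, a muscle methyltransferase, also takes part in thick filament assembly.

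The comparison asked which of these transcripts differ in runzel muscle at the onset of the phenotype. Both muscle forms were higher in runzel in each pair of arrays, as were 18.1 percent of all tested probe sets. The general forms were not higher in each pair. The groups overlapped for hsp90aa1.1, as they did for the general forms. They did not overlap for unc45b, as for 5.89 percent of all tested probe sets with runzel higher. On the scale of log2 of the signal plus 50, used for all differences below, unc45b was 1.40 ± 0.0645 higher in runzel and hsp90aa1.1 0.84 ± 0.457 (SD over 3 pairs of arrays with the same number). The brighter probe set of hsp90ab1 differed by -0.06 ± 0.116 and that of hsp90aa1.2 by -0.22 ± 0.397. In the limma fit that compares arrays within pairs, 2 of the 4 members bright enough to be tested passed at an adjusted p of 0.05, unc45b and hsp90aa1.1, both higher, where 0.720 percent of all 9301 tested probe sets passed as higher and 1.19 percent in either direction. In the limma fit without pairs 0 of 4 members passed, with unc45b as the 1 member at an unadjusted p under 0.05, and 0 percent of all probe sets passed, 447 of them being at an unadjusted p under 0.05. The pairing rests on array numbers whose values vary together and not on a label, so both fits are given for each member. The members were chosen with earlier results of these data known.

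The arrays themselves were alike in brightness, with median signals between 612.6 and 672.3 in runzel and between 602.1 and 630.5 in wildtype siblings. Of 15 skeletal muscle markers 13 were on the array and all 13 were tested, of which 1 fell and 0 rose in the paired fit, where 0.473 percent of all probe sets passed as lower; none had a signal under 23800, and their summed signal ran from 1067380 to 1207279 in runzel and from 1154932 to 1360241 in wildtype siblings. The 3 heart markers on the array were dim, with sums of 335.9 to 463.9 in runzel and 303.3 to 317.7 in wildtype siblings. Sums over 7 of 8 gut, liver and pancreas markers were 90310 to 95146 in runzel and 119545 to 121078 in wildtype siblings, and 2 of 5 tested ones fell in the paired fit. Sums over 9 of 10 epidermis markers were 231419 to 278654 in runzel and 272044 to 314994 in wildtype siblings, and 5 of 9 tested ones fell in the paired fit. Sums over 3 of 4 endothelium markers were 6823.0 to 9445.3 in runzel and 11763 to 13217 in wildtype siblings, and 1 of 3 tested ones fell. The blood, nervous system, notochord and cartilage, and lens and eye sums overlapped between the groups, and 1 of 4 tested blood markers fell. None of these lists held a marker at 0. The ratio of 3′ to 5′ actin control signal, a common gauge of RNA quality, averaged 2.49 ± 0.398 on runzel arrays and 1.51 ± 0.195 on wildtype ones (SD, n = 3 each). Its exact permutation p was 0.1, the lowest that 3 against 3 allows. The same ratio for the GAPDH control did not share this rise. It averaged 1.5 ± 0.0374 on runzel arrays and 1.57 ± 0.0391 on wildtype ones (SD, n = 3 each, exact permutation p = 0.2). The part of these shifts in the chaperone differences was not tested. In bulk tissue, more of a cell type and more RNA per cell cannot be told apart.

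Unc45b, the myosin-head chaperone, had signals of 4007.4, 4991.9 and 5145.9 on runzel arrays 1, 2 and 3, against 1428.8, 1835.1 and 2015.8 on wildtype sibling arrays 1, 2 and 3. Every runzel array was brighter than every wildtype array, and the lowest runzel signal was 1.99 times the highest wildtype one. The groups likewise did not overlap, with runzel higher, at 5.89 percent of all tested probe sets. The means were 4715 ± 618 on runzel arrays and 1760 ± 301 on wildtype ones (SD, n = 3), so that the spread within each group, 13.1% and 17.1% of its mean, was small beside the gap between them.

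The rise was of nearly the same size in each pair of arrays. The log2 differences were 1.46, 1.42 and 1.33 in pairs 1, 2 and 3, and the ratios of the raw signals were 2.80, 2.72 and 2.55. The mean of 1.40 corresponds to 2.64-fold, with a 95% interval of 2.21 to 3.16 in the paired limma fit, where unc45b rose (adjusted p = 3.26e-04). In the unpaired limma fit the interval was 2.00 to 3.49 and the gene did not pass over all probe sets (adjusted p = 0.143), although its unadjusted p of 2.04e-05 was the smallest of all 9301. Of all tested probe sets, 5 had a larger log2 difference than unc45b. Taken as a single value, the exact permutation p was 0.1 and the exact sign-flip p over the 3 pairs 0.25, each the smallest possible. The call held in the paired fit with each pair left out, with adjusted p between 5.97e-05 and 0.00763.

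**Figure D1:**
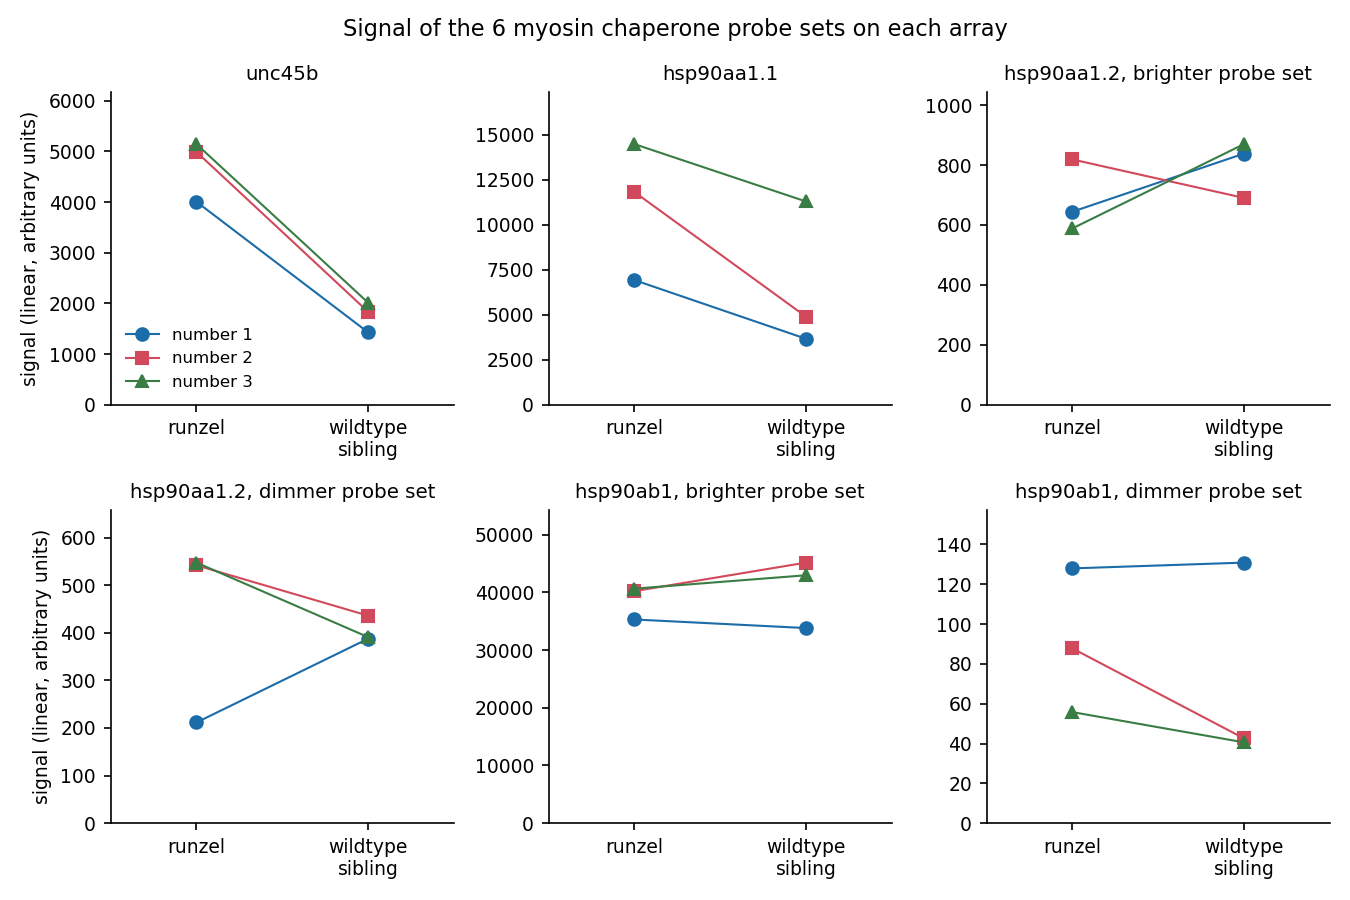
Linear signal (vertical axes, arbitrary units, each from 0) of the 6 member probe sets on the 3 runzel arrays (left of each panel) and the 3 wildtype sibling arrays (right); lines join arrays of the same number. For unc45b all 3 runzel arrays, at 4007.4 to 5145.9, stand above all wildtype arrays, whereas hsp90aa1.1 overlaps between groups and hsp90ab1 is nearly level.

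Hsp90aa1.1, the Hsp90 of developing muscle, was also higher in runzel, but varied more from pair to pair. Its signals were 6917.9, 11809.7 and 14469.7 on runzel arrays 1, 2 and 3, against 3658.8, 4888.6 and 11283.6 on the wildtype sibling arrays of the same numbers. Within each number the runzel array was the brighter, yet the groups overlapped, because wildtype array 3 was brighter than runzel array 1. The means were 11066 ± 3830 on runzel arrays and 6610 ± 4094 on wildtype ones (SD, n = 3), a spread of 34.6% and 61.9% of the mean.

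The log2 differences of hsp90aa1.1 were 0.91, 1.26 and 0.36 in pairs 1, 2 and 3, all above 0, as they were at 18.1 percent of all tested probe sets. The mean of 0.84 is 1.79-fold, with a 95% interval of 1.44 to 2.24 in the paired limma fit, where hsp90aa1.1 rose (adjusted p = 0.0197). In the unpaired limma fit the interval was 0.969 to 3.32 and the gene did not pass (adjusted p = 0.977). The exact permutation p was 0.2 and the exact sign-flip p 0.25. In the paired fit the call was lost without pair 1 (adjusted p = 0.166) or pair 2 (adjusted p = 0.119), and without pair 3 the difference was 1.09 (adjusted p = 3.48e-04). It was also lost with the number as a random block in limma (adjusted p = 0.258), where 0.204 percent of all probe sets passed, and in the paired fit without limma's intensity trend (adjusted p = 0.248). Without wildtype array 3 the unpaired difference was 1.31, and without wildtype array 1 it was 0.51. Of all tested probe sets, 39 had a larger difference.

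A further probe set carries the symbols of both hsp90aa1.1 and hsp90aa1.2 in the platform annotation, so its signal cannot be assigned to either gene and it is no member. It read 6230.8, 8737.1 and 11296.6 in runzel, against 3067.1, 4068.9 and 8984.5 in wildtype siblings. Within each group its order over the arrays was that of the hsp90aa1.1 probe set, an order that unc45b also had. The pair differences were 1.01, 1.09 and 0.33. The mean of 0.81 passed in the paired limma fit (adjusted p = 0.0201) and not in the unpaired one (adjusted p = 0.977). It was set beside the members after the data were seen.

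The second alpha gene, hsp90aa1.2, did not show the difference of its neighbour. Its brighter probe set, at percentile 54.8 of mean signal over all probe sets, read 644.1, 818.6 and 588.4 on runzel arrays, against 838.2, 690.1 and 869.8 on wildtype sibling arrays. The groups overlapped, and the runzel array was the lower in pairs 1 and 3 and the higher in pair 2. The means were 684 ± 120 on runzel arrays and 799 ± 95.9 on wildtype ones (SD, n = 3), and the difference of -0.22 passed neither limma fit (adjusted p = 0.686 paired, with a 95% interval of the fold of 0.644 to 1.15, and 0.977 unpaired). Its exact permutation p was 0.2.

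The dimmer hsp90aa1.2 probe set fell just under the brightness filter, at percentile 38.6 against the minimum of 40, and so was not tested. It read 211.5, 541.6 and 547.3 in runzel, against 387.4, 435.9 and 390.9 in wildtype siblings. Runzel array 1 was the lowest and runzel array 3 the highest of the 6, so that the runzel values enclosed all wildtype ones. The pair differences of -0.74, 0.28 and 0.44 went opposite to those of the brighter probe set in pair 3, and the mean was -0.01 (exact permutation p = 1). With no brightness filter its paired limma test gave an adjusted p of 0.996.

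Hsp90ab1, the constitutive beta form, was nearly level between the groups at its bright probe set, which lay at percentile 98.9 of mean signal. It read 35304.2, 40217.8 and 40647.4 on runzel arrays, against 33814.8, 45159.7 and 42966.5 on wildtype sibling arrays. The groups overlapped, with number 1 the lowest array in both. The means were 38723 ± 2969 on runzel arrays and 40647 ± 6018 on wildtype ones (SD, n = 3). The difference of -0.06 did not pass (adjusted p = 0.782 paired and 0.998 unpaired in limma), and its sign turned to 0.02 under quantile normalization. The 95% interval of the fold was 0.859 to 1.07 paired and 0.795 to 1.15 unpaired.

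The other hsp90ab1 probe set was dim, at percentile 8.22, and untested, with signals of 128.0, 87.8 and 55.8 in runzel and 130.9, 42.6 and 40.6 in wildtype siblings. It disagreed with the bright probe set in the direction of pairs 1, 2 and 3 alike. Its mean difference was 0.26, and without the brightness filter its paired limma test gave an adjusted p of 0.863.

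**Figure D2:**
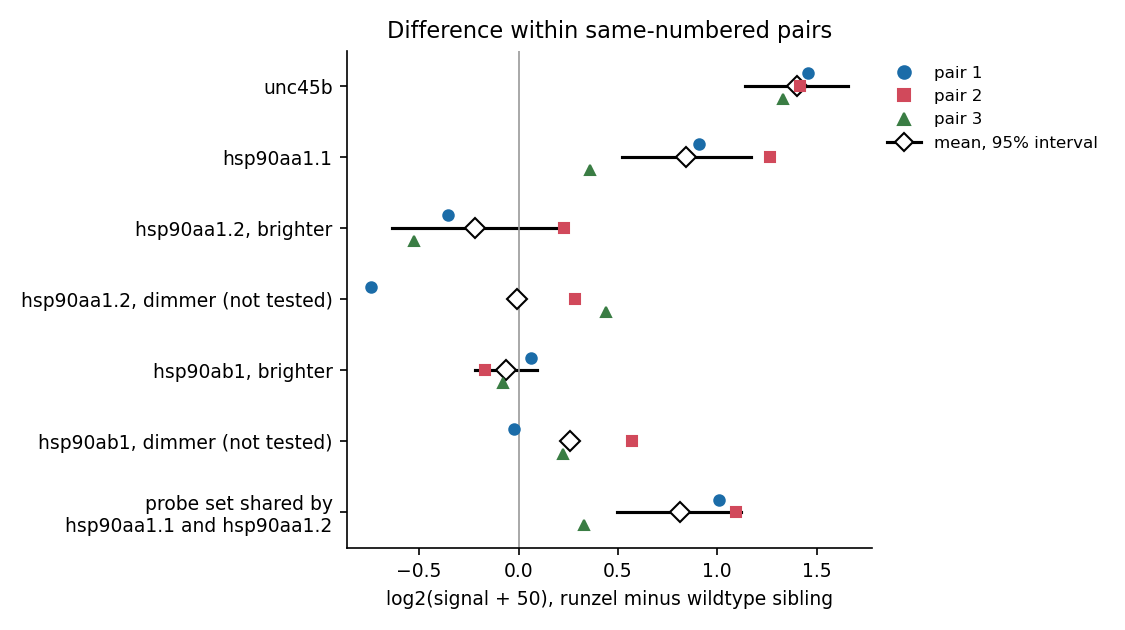
Difference in log2(signal + 50), runzel minus wildtype sibling (horizontal axis), in each pair of same-numbered arrays (coloured points) with the mean (open diamond) and, where tested, the 95% interval of the paired limma fit (line). The intervals of unc45b, hsp90aa1.1 and the probe set shared by both alpha genes lie above 0; those of hsp90aa1.2 and hsp90ab1 include it.

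**Figure D3:**
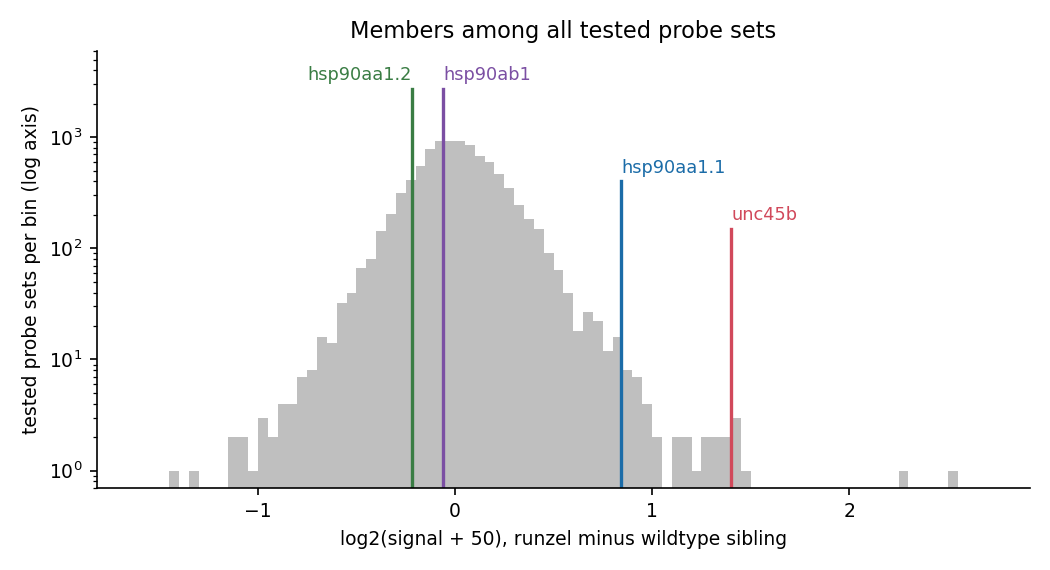
Number of tested probe sets (vertical log axis) by their difference in log2(signal + 50), runzel minus wildtype sibling (horizontal axis), with the 4 tested members marked. Unc45b at 1.40 and hsp90aa1.1 at 0.84 lie beyond percentile 95 of all 9301 differences, at 0.403, and hsp90ab1 and hsp90aa1.2 lie between percentile 5, at -0.341, and that value.

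The change of the muscle forms was then set against that of the general forms on the same arrays, as the log2 value of one probe set minus that of the other, which removes the scaling of the array. Against hsp90ab1, unc45b was at -3.12, -3.0 and -2.97 on runzel arrays and at -4.52, -4.58 and -4.38 on wildtype sibling arrays. The groups did not overlap, and unc45b changed by 1.46 ± 0.107 more than hsp90ab1 (SD over 3 pairs), higher in 3 of 3 pairs. Against hsp90ab1, hsp90aa1.1 was at -2.34, -1.76 and -1.49 on runzel arrays and at -3.19, -3.19 and -1.92 on wildtype sibling arrays. The groups overlapped, as runzel array 1 lay below wildtype array 3, and the difference in change was 0.91 ± 0.499, higher in 3 of 3 pairs. These values carry the probe sets' own brightness, and only their change between groups is comparable.

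Between the neighbouring alpha genes, hsp90aa1.1 changed by 1.06 ± 0.192 more than hsp90aa1.2, with pair values of 1.27, 1.03 and 0.88, and by 0.688 without wildtype array 1. Between the muscle partners, unc45b changed by 0.56 ± 0.409 more than hsp90aa1.1, with pair values of 0.55, 0.16 and 0.97. Without wildtype array 3 this last difference was 0.192, and without runzel array 1 it was 0.366. With 4 such pairs of genes compared, the exact two-sided permutation p was 0.1 for unc45b against hsp90ab1, 0.2 for hsp90aa1.1 against hsp90ab1 and against hsp90aa1.2, and 0.4 for unc45b against hsp90aa1.1. Adjusted over the 4 by Benjamini-Hochberg these were 0.267 for the first 3 and 0.4 for the last. The exact sign-flip p was 0.25 for each, and 0.25 after adjustment. None could reach 0.05 with 3 arrays a group.

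The members were also set against the skeletal muscle markers of the same array, as a setting added after the data were seen. The mean log2 value of the 13 markers was 0.136 ± 0.0967 lower in runzel, at 16.23, 16.43 and 16.38 on runzel arrays and 16.37, 16.47 and 16.61 on wildtype sibling arrays (log2 difference -0.136, exact permutation p = 0.3). Relative to it, unc45b differed by 1.54 ± 0.0735 (exact permutation p = 0.1), hsp90aa1.1 by 0.98 ± 0.362 (exact permutation p = 0.2) and hsp90ab1 by 0.0743 ± 0.179 (exact permutation p = 0.5, each SD over 3 pairs). The same marker mean was subtracted from each gene, so every difference moved up by the markers' own 0.136. The part of muscle content in the member differences was not tested.

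Hsp90 works with co-chaperones that load, time and release its clients. Of 36 listed co-chaperone and regulator genes 25 were tested, each by its brightest probe set. The list also holds the heat shock factor genes hsf1 and hsf2 and the organelle Hsp90 genes hsp90b1 and trap1. None of the 25 passed in either limma fit. In the paired one 2 were at an unadjusted p under 0.05, as were 802 of all 6136 tested genes. Of the 25, 15 lay above 0 and 10 below. Their median log2 difference was 0.06, beside 0.00268 over all 6136 tested genes, of which 1.3% passed in the paired fit. The range of the list was -0.43 to 0.32. The brightest members did not move together: the J-domain genes dnaja2a and dnaja2b were at -0.15 and -0.10, the immunophilin gene fkbp5 at 0.21, and dnajc7, which hands clients between Hsp70 and Hsp90, at 0.32 ± 0.121. Dnajc7 read 7756.2, 8090.2 and 7090.1 in runzel, against 5931.8, 6122.6 and 6245.2 in wildtype siblings. Its groups did not overlap, as at 5.89 percent of all tested probe sets with runzel higher, and it did not pass (paired limma adjusted p = 0.217). Tomm34 was the other gene of the list without overlap, and it did not pass either (0.25 ± 0.232, paired limma adjusted p = 0.491). It read 2234.1, 2265.8 and 2040.4 in runzel, against 1827.2, 1626.9 and 2032.9 in wildtype siblings, and was added after its values were seen.

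Several further genes of this list were picked out after their values were seen, for their roles. The Hsp90 of the endoplasmic reticulum, hsp90b1, read 4061.2, 2422.9 and 2771.8 in runzel, against 4708.6, 3424.0 and 3930.4 in wildtype siblings. It was lower in runzel in 3 of 3 pairs, at -0.40 ± 0.163, and did not pass (paired limma adjusted p = 0.184). Of all tested probe sets 18.1 percent were higher in 3 of 3 pairs, and the share lower was not counted. Trap1, the mitochondrial Hsp90, was at 0.06. The gene of the activator of Hsp90's ATPase was at 0.17 for ahsa1a and 0.27 for ahsa1b, the kinase-client adaptor cdc37 at 0.15, and hsf1, which encodes the factor that switches on heat shock genes, at 0.23. On the other side of 0 were hsf2, a second heat shock factor, at -0.20, chordc1b, an Hsp90-binding gene, at -0.23, and pih1d1, of the Hsp90-linked R2TP complex, at -0.43, the lowest of the list and lower in 3 of 3 pairs (paired limma adjusted p = 0.403). None of these genes passed. Stub1 and ube4b, whose relatives in the worm mark the UNC-45 protein for degradation, were at -0.07 and 0.01.

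In the heat shock response list 4 of 14 tested genes were higher in the paired fit, 0 lower, and 0 in either direction in the unpaired one. These 28.6% are to be read beside the 1.3% of all tested genes, and the list was drawn up with earlier results of these data known. Of the 4, hspa1b and hsp70.3 passed the brightness filter only through their runzel arrays. Their mean log2 signals in wildtype siblings lay under its level of 8.904, so the share is no measure of enrichment. The same limit holds for the list's median of 0.26 and for the 10 of 14 genes above 0. The adjusted p of these 2 genes are given as a description. In the paired limma fit 6 of the 14 were at an unadjusted p under 0.05, as were 802 of all 6136 tested genes. Hspa1b, the inducible Hsp70, read 580.3, 1815.1 and 4138.7 in runzel, against 90.5, 153.4 and 846.4 in wildtype siblings, and rose by 2.53 ± 0.579 (paired limma adjusted p = 4.02e-04). Its order over the arrays of each group was that of hsp90aa1.1, with number 3 the brightest in both groups. Unc45b and the light chain genes mylpfa and myl1 had this order as well. How common it is over all probe sets was not counted. The groups overlapped, as runzel array 1 at 580.3 lay under wildtype array 3 at 846.4. Hsp70.3, a further inducible Hsp70 gene, was at 1.41 ± 0.857 (paired limma adjusted p = 0.0445), at a probe set of the kind that can cross-hybridise. Its groups overlapped as well.

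Both small heat shock protein genes that rose had groups that did not overlap, as unc45b did. The same held, with runzel higher, at 5.89 percent of all tested probe sets. Hspb8, whose product works with Bag3 on damaged filament proteins, read 6960.6, 8213.8 and 8131.9 in runzel, against 3489.5, 3670.4 and 2557.8 in wildtype siblings (1.26 ± 0.345, paired limma adjusted p = 0.00161, unpaired 0.143). Hspb1, an actin- and filament-binding chaperone, read 5569.2, 8763.8 and 13045.6 in runzel, against 3016.7, 2997.6 and 3620.7 in wildtype siblings (1.41 ± 0.491, paired limma adjusted p = 0.00234, unpaired 0.416). The abundant housekeeping chaperones did not pass: the constitutive Hsp70 gene hspa8 was at -0.06, the mitochondrial chaperonin genes hspd1 and hspe1 at -0.08 and -0.10, and the mitochondrial Hsp70 gene hspa9 at 0.17.

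Myosin heavy chain genes, which encode the clients of the chaperones, were listed with those of myosin light chains and myosin-binding proteins. Of these 34 listed genes 12 were tested. Of the 12, 1 rose in the paired fit and 0 fell, with 6 above 0 and 6 below and a median of 0.01. In the paired limma fit 5 of the 12 were at an unadjusted p under 0.05, as were 802 of all 6136 tested genes. The 1 gene that passed is 8.33% of the list, beside 1.3% of all tested genes. This list was also drawn up with earlier results of these data known. The gene that rose was mybpc2b, a fast-muscle myosin-binding protein C, with 6545.5, 12500.7 and 12145.0 in runzel, against 2362.7, 3789.9 and 6526.9 in wildtype siblings (1.35 ± 0.418, paired limma adjusted p = 0.00161, unpaired 0.814). Its lowest runzel array stood just above its highest wildtype one. The groups likewise did not overlap, with runzel higher, at 5.89 percent of all tested probe sets. Of the brightest genes of the list, the light chain genes mylpfa and myl1 lay close to 0, at -0.04 and -0.01, as did mybphb at -0.09. A further light chain gene, mylz3, was at -0.18 ± 0.111 and lower in every pair, and did not pass (paired limma adjusted p = 0.204). The share of all probe sets lower in every pair was not counted.

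The 3 tested myosin heavy chain genes, picked out after their values were seen, lay on both sides of 0, and none passed. The fast myosin heavy chain gene myhz1.3 averaged 63556 ± 4942 in runzel and 55276 ± 9022 in wildtype siblings (0.21 ± 0.137, paired limma adjusted p = 0.22), and the slow gene smyhc1 averaged 35037 ± 1794 in runzel and 28602 ± 7277 in wildtype siblings (0.33 ± 0.318, paired limma adjusted p = 0.218; SD, n = 3 for each mean). Both were higher in 3 of 3 pairs, as were 18.1 percent of all tested probe sets. Myh7, a slow and cardiac myosin heavy chain gene, averaged 1962 ± 297 in runzel and 2461 ± 473 in wildtype siblings and was lower in 3 of 3 pairs (-0.31 ± 0.189, paired limma adjusted p = 0.347; SD, n = 3 for each mean). For lower values the share over all probe sets was not counted. The genes of the fast myosin heavy chain cluster are near-identical in sequence, so the myhz1.3 signal may include its copies. Of the SMYD family and its partner, smyd2a was at 0.07 and naca, of which a muscle isoform binds Smyd1, at -0.01, and neither passed.

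**Figure D4:**
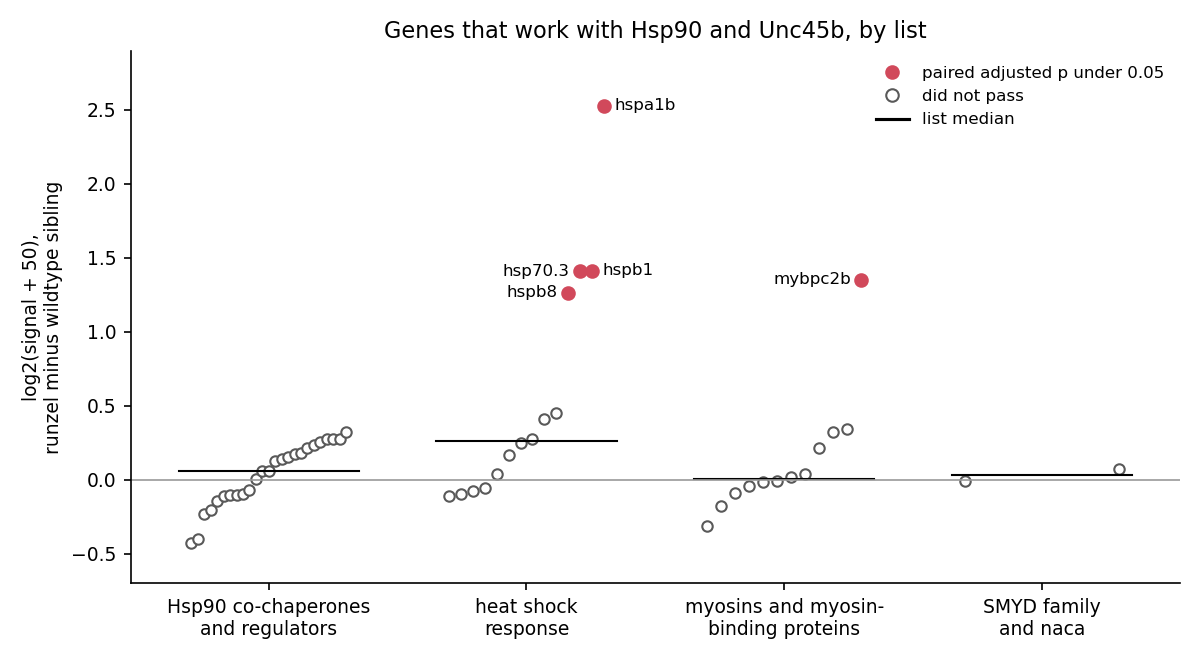
Difference in log2(signal + 50), runzel minus wildtype sibling (vertical axis), of each tested gene in 4 lists (horizontal axis), by its brightest probe set, ordered by value within a list; filled points passed the paired limma fit and short lines mark list medians. The 25 co-chaperone and regulator genes stay between -0.43 and 0.32, while 4 heat shock genes and mybpc2b lie above 1.

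The genes with the pattern most like each muscle form were found by Pearson's r of log2 values over the 6 arrays, among the brightest tested probe sets of all other named genes. With 6 arrays in 2 groups, such an r mostly ranks genes by the split between groups and by the array numbers, and it is given as a description. For unc45b these were kcmf1 (0.978), pvalb7 (0.974), samd11 (0.967), heatr3 (0.967), ppdpfb (0.958) and pim1 (0.956). All 6 were higher in runzel on average, which their choice by r largely fixes. Pvalb7, a parvalbumin, had the largest difference of them, at 1.05 ± 0.302 (paired limma adjusted p = 0.00877, unpaired 0.416). Ppdpfb also rose, by 0.49 ± 0.131 (paired limma adjusted p = 0.0106, unpaired 0.649), and the other 4 passed in neither fit. Of all tested genes 1.3% passed in the paired fit. As the 6 were chosen on these same arrays, their p-values are no separate support.

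For hsp90aa1.1 the genes most alike were different ones: rxrbb (0.994), cct4 (0.994), eif4e1c (0.989), fbxl5 (0.983), wdr5 (0.983) and eef2l2 (0.981). Cct4 encodes a subunit of the cytosolic chaperonin, which folds actin, and eif4e1c a cap-binding translation factor. Their differences between groups ran from 0.15 to 0.36 and none passed, and like hsp90aa1.1 each was brighter on wildtype array 3 than on runzel array 1. Unc45b and hsp90aa1.1 correlated with each other at 0.754 over the 6 arrays.

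**Figure D5:**
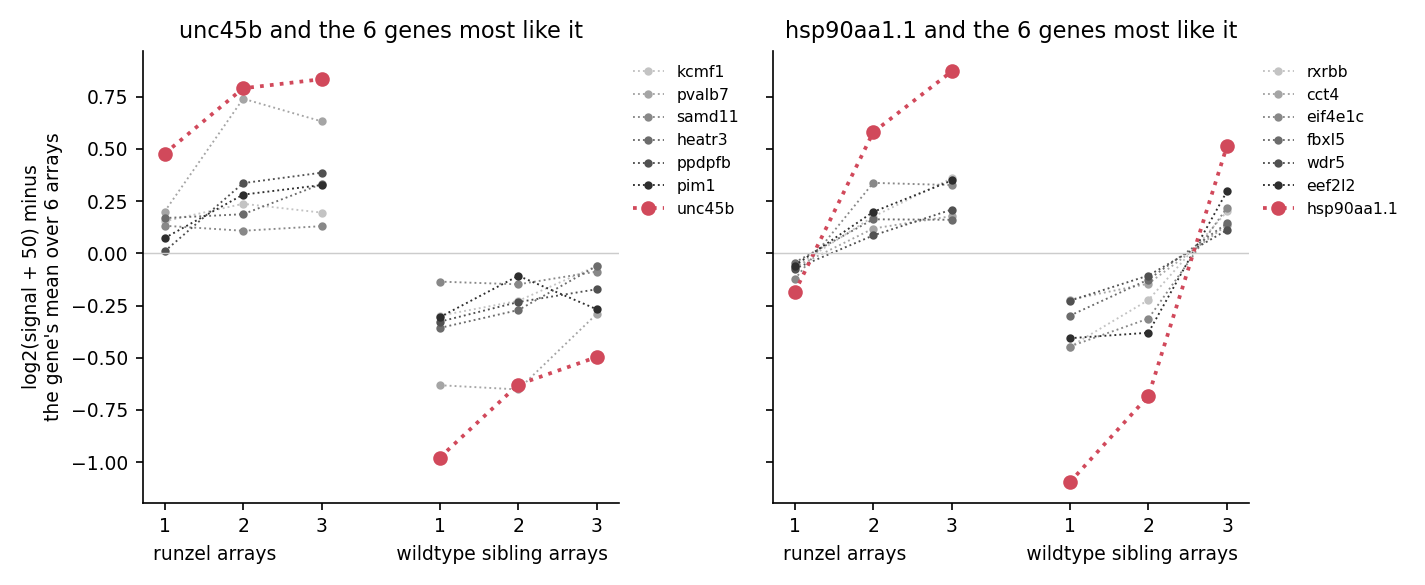
Log2(signal + 50) minus the gene's mean over the 6 arrays (vertical axis) for unc45b (left) and hsp90aa1.1 (right) in red, each with its 6 most similar genes in grey, on runzel arrays 1 to 3 and wildtype sibling arrays 1 to 3; dotted lines only join the points of a gene. The genes on the left split by group, and those on the right also run high on number 3 in the wildtype siblings.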

How the data were processed

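Signal was measured in 3 runzel and 3 wildtype sibling samples. Per the labels, arrays were read on a GeneChip Scanner 3000 and quantified in GeneChip Operating Software 1.2 with default parameters. The values were deposited as signal intensity on a linear scale, summarised per probe set by a method, and to a scaling target, not given in the sources used here. Their 2% trimmed mean was 1500.42 to 1500.46 on each array, so the deposited intensity was kept as scaled. It was analysed as log2 of signal plus 50, a scale on which fold changes of dim probe sets come out too small. The number of arrays, 3 a group, limits precision.

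Of 15617 probe sets 115 controls were left out; 10795 had 1 gene symbol in the platform annotation, 135 several and 4572 none. Probe sets under the 40th percentile of mean log2 signal (8.904) were not tested, leaving 9301. The comparison used limma 3.58.1 under R 4.3.3 (empirical Bayes with intensity trend, Benjamini-Hochberg over all tested probe sets, two-sided, threshold 0.05), without a block (unpaired, set as primary) and with the replicate number as a block (paired). Deviations from group means correlated at 0.551, 0.389 and 0.526 between arrays of the same number and at -0.401 to -0.152 between others. Such deviations cancel out within each group, so the negative values follow from the positive ones and are no separate evidence. The numbers were taken as pairs from the same-number correlations, that is, from the data. Exact permutation over 10 distinct splits and sign-flips over 3 pairs served for single values. The code of the fits was run on simulated data with planted changes, which says nothing about the pairing or the calls on these arrays. Other settings changed the block, pseudocount, scaling, filter and trend, and left out arrays or pairs.

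The members and lists were chosen with earlier results of these data known. Every member probe set is named; of each list, genes that passed a fit and the 4 brightest others; and the 6 genes most correlated with each muscle form, passing over clone names.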

Additional observations from a re-analysis of the deposited data

How the results depend on the processing

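In the unpaired limma fit 0 members and 0 of 9301 probe sets passed, and no change of pseudocount, scaling, filter or trend altered either count. With the replicate block 2 members passed, unc45b and hsp90aa1.1, and 111 probe sets. Together with the block, the probe sets that passed numbered 106 with a pseudocount of 1, 113 with 200, 103 under quantile normalization, 93 under median centring, 81 with no filter, 102 with a filter at the 60th percentile and 119 with robust eBayes, each with 2 members. They numbered 3 without the intensity trend and 19 with a random block, each with 1 member, unc45b. Of the 111, 67 were higher and 44 lower; under median centring 46 were higher and 47 lower. Leaving out an array gave 0 to 1 probe sets and 0 members, and leaving out a pair with the block 29 to 149 (34 without pair 1) and 1 to 2.

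With the block, unc45b passed in each of these settings at 1.40, apart from 1.43 and 1.33 with pseudocounts of 1 and 200 and 1.35 under median centring, and hsp90aa1.1 passed at 0.844 (no filter, the 60th percentile, robust eBayes), 0.850, 0.825, 0.843 (quantile) and 0.790 (median centring). Without an array unc45b ran from 1.26 to 1.51 and hsp90aa1.1 from 0.506 to 1.31. With the block, unc45b was 1.37, 1.39 and 1.44 without pair 1, 2 and 3 and passed each time, and hsp90aa1.1 passed without pair 3 (1.09). The hsp90ab1 difference, never past the threshold, turned positive under quantile normalization (0.0206, with and without the block), without runzel replicate 1 (0.00351) and without wildtype replicate 2 (0.0198), and over the arrays left out it ran from -0.189 to 0.0198; the cause was not tested. Each of the 4 differences in change between forms kept its sign in all 9 alternatives, at 1.3 to 1.52 for unc45b over hsp90ab1, 0.693 to 1.33 for hsp90aa1.1 over hsp90ab1, 0.688 to 1.47 for hsp90aa1.1 over hsp90aa1.2 and 0.192 to 0.757 for unc45b over hsp90aa1.1. Dim signal limits the untested hsp90aa1.2 and hsp90ab1 probe sets.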
